A study of Sus scrofa with 16 samples.

Results

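FOLR1, the gene of folate receptor alpha, and GNAS, the gene of the stimulatory G protein alpha subunit, were followed across liver, skeletal muscle (longissimus), uterine endothelium and brain stem of 4 gilts. They are 2 genes, with 1 row each, among the 20736 rows of the array table, of which 178 rows carried a gene symbol. Both were selected on measured values, because brain stem lay far below the other tissues, so the brain stem differences are given as a description, with no test, and only the order among liver, skeletal muscle and uterine endothelium was tested. The tissues came from young female pigs of about 165 days, with no treatment named in the labels. RNA was taken from whole tissue pieces, so fewer cells of a type and less RNA per cell cannot be told apart. The labels call the 4th tissue brain in the sample titles and brain stem in the design text, and "uterine endothelium" is kept here as the labels give it. Each gilt formed a closed loop of 4 two-colour arrays, 16 in all, in which every tissue was hybridised once with Cy3 and once with Cy5.

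Folate receptor alpha is held on the cell surface by a glycosylphosphatidylinositol anchor, binds folate with high affinity and carries it into the cell by endocytosis. In mammals it is best known from epithelia, such as those of the kidney tubule, the choroid plexus and the female reproductive tract, and folate-binding proteins of this family have been studied in the pig uterus. The stimulatory G protein alpha subunit couples hormone receptors to adenylyl cyclase, which makes cyclic AMP; it is used by nearly all cells. The GNAS locus is imprinted and gives several transcripts from alternative first exons. The row of FOLR1 was matched to NCBI Gene 397579 and that of GNAS to NCBI Gene 100049657 in the RefSeq gene table of Sscrofa11.1, which lists 2 and 24 transcripts for them. The symbol FOLR1 is carried there by 2 neighbouring genes, and FOLR2 lies close by; the probe was not compared with these paralogs, nor with the transcripts of GNAS, so the values of both genes may include related transcripts.

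The values are ratios of 2 dyes, read as log2 of Cy5 over Cy3. Neither the base nor the sign is stated in the sources used here. Base 2 was inferred from the size of the values, since the most extreme one, 10.42, would mean 33586-fold on a natural log scale against 1372-fold on a log2 scale. The sign is likely, not settled: with it, 5 of the 6 measured liver markers, among them the acute phase protein CRP (2.47 ± 0.28 in liver, SD, n = 4), were highest in liver, and the myogenic factor MYOD1 was highest in muscle (0.86 ± 0.12). The liver markers PROC, UOX, MBL2 and CYP7A1 stood at 2.07, 1.68, 1.59 and 0.74 in liver. Like CRP, each was below 0 in the other tissues, as was MYOD1 outside muscle. Of the other marker lists, 2 of 3 skeletal muscle genes, 2 of 4 brain stem genes and 1 of 2 uterine genes were highest in the tissue they mark. Some markers went the other way. GLRB, a brain stem marker, was lowest in brain stem (-0.26 ± 0.11, beside 0.15 ± 0.09 in liver). OXTR, a uterine marker, was lowest in uterine endothelium (-0.18 ± 0.11) and highest in muscle (0.35 ± 0.09). The liver marker CYP8B1 was highest in muscle (0.20). The muscle marker MYH7 (0.19) and the brain stem marker GAD1 (0.10) were highest in liver. For the choroid plexus, 0 of the 4 markers had a named row. Were the sign the opposite, each direction below would turn round. CRP, PROC, UOX, MBL2 and CYP7A1 would then be lowest in liver, and MYOD1 lowest in muscle. Array medians lay between -0.01 and 0.01, and the SD over all rows was 0.58 to 1.00 on the 8 arrays holding brain stem and 0.52 to 0.71 on the others. Intensities were not used here, so signal over background is unknown, and the number of gilts limits the precision.

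FOLR1 was high in liver and uterine endothelium and low in skeletal muscle and brain stem, with brain stem the lowest. Solved from the loops and centred on the average of each gilt, its log2 values in liver were 1.00, 1.28, 1.20 and 1.12 in gilts 1 to 4, a mean of 1.15 ± 0.12 (SD, n = 4). In uterine endothelium they were 1.34, 1.01, 0.75 and 1.09, a mean of 1.05 ± 0.24. The ranges of these 2 tissues overlapped, and liver was the tissue in which the gilts differed least. In skeletal muscle the values were -0.79, -1.13, -0.62 and -0.18, a mean of -0.68 ± 0.39, and in brain stem they were -1.56, -1.17, -1.34 and -2.03, a mean of -1.52 ± 0.37. All 8 values of liver and uterine endothelium stood above all 8 of muscle and brain stem, and the ranges of muscle and brain stem did not overlap, though muscle of gilt 2 came within 0.04 of brain stem in the same animal.

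GNAS had a single low tissue and 3 whose ranges overlapped, with the highest mean in uterine endothelium. Its log2 values in brain stem were -1.87, -1.12, -1.73 and -2.17 in gilts 1 to 4, a mean of -1.72 ± 0.44 (SD, n = 4). In liver they were 0.78, 0.25, 0.34 and 0.47, a mean of 0.46 ± 0.23, and in skeletal muscle 0.72, -0.01, 0.12 and 0.56, a mean of 0.35 ± 0.35. Uterine endothelium gave 0.37, 0.87, 1.26 and 1.14, a mean of 0.91 ± 0.40. Brain stem was below every value of the other tissues, while the ranges of liver, muscle and uterine endothelium overlapped one another.

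**Figure D1:**
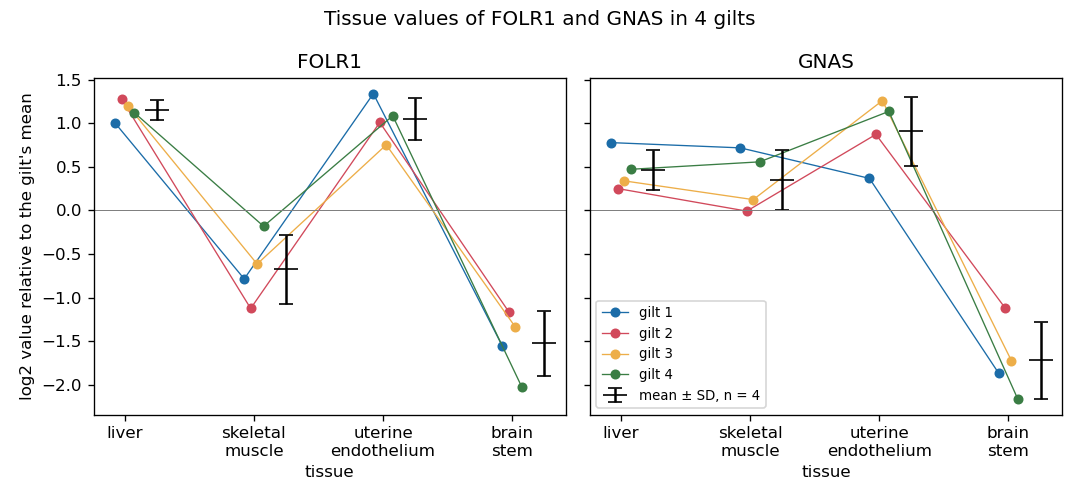
Log2 values of FOLR1 (left) and GNAS (right) in 4 tissues, centred on each gilt's average; coloured points joined by lines are gilts, and black marks are the mean ± SD over 4 gilts. FOLR1 is low in both skeletal muscle (mean -0.68) and brain stem (-1.52), whereas GNAS is low in brain stem alone (-1.72).

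The distance of brain stem from the other tissues, on which the genes were picked, was as follows. For FOLR1, brain stem minus liver was -2.56, -2.45, -2.54 and -3.15 on the log2 scale in gilts 1 to 4, a mean of -2.67 ± 0.32 (SD, n = 4), or 6.38-fold if the base is 2. The mean of brain stem minus uterine endothelium was -2.57 ± 0.51, and that of brain stem minus muscle was -0.85 ± 0.75. That last difference was uneven over the animals, at -0.77, -0.04, -0.72 and -1.85 in gilts 1 to 4. Without gilt 4 it was -0.51, and with all arrays scaled to 1 spread -0.46. For GNAS the mean differences of brain stem from liver, muscle and uterine endothelium were -2.18 ± 0.61, -2.07 ± 0.75 and -2.63 ± 0.62, or 4.53-fold, 4.19-fold and 6.19-fold. Measured by the distance to the nearest other tissue, GNAS ranked 1st and FOLR1 4th of the 178 rows with a symbol, and 143 and 708 of all 20736 rows lay at least as far below. In both genes that nearest tissue was skeletal muscle.

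The single arrays show how these values arose. Turned to liver over brain stem, the log2 ratio of FOLR1 was 2.87, 2.22 and 2.70 on the 3 arrays that held both tissues (gilts 1, 3 and 4), and that of GNAS was 2.68, 1.70 and 2.15. Muscle over brain stem was hybridised directly in gilts 2 and 3, where FOLR1 gave 0.26 and 1.04 and GNAS gave 0.88 and 2.21. For both genes gilt 3 thus exceeded gilt 2. Both genes were read from the same arrays, whose SD over all rows was 0.58 in gilt 2 and 0.82 in gilt 3. The array of uterine endothelium against brain stem in gilt 4, which had the largest SD of all 16 arrays (1.00), also gave the largest absolute ratio of each gene, 3.56 for FOLR1 and 3.80 for GNAS. In the other 2 gilts with this pair, 1 and 2, the ratios were 2.59 and 1.95 for FOLR1 and 2.20 and 2.22 for GNAS. The part of that array's wider spread in the brain stem values was not tested beyond the scaled arrays and the omission of gilt 4.

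**Figure D2:**
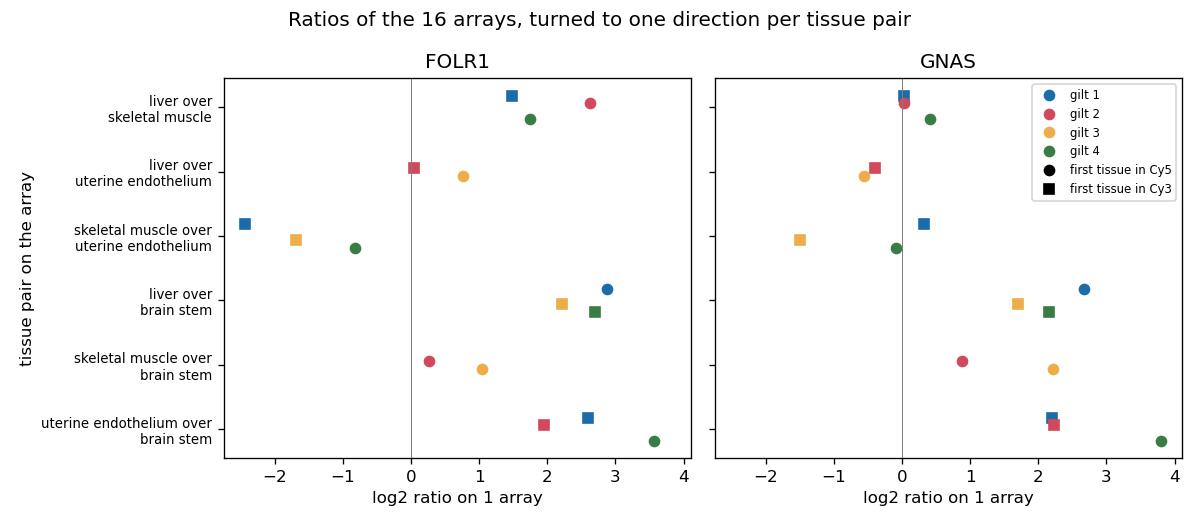
Log2 ratios of FOLR1 (left) and GNAS (right) on each of the 16 arrays, turned so that the first tissue of the pair is on top; colours are gilts, circles have the first tissue in Cy5 and squares in Cy3. All 8 ratios against brain stem are above 0 in both genes, and of the pairs with skeletal muscle, liver over muscle has ranges that do not overlap between the genes, while the other 2 overlap.

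Around a loop the tissue differences cancel, so the mean of its 4 ratios measures the dye together with the mean error of the 4 arrays. For FOLR1 this dye value was 0.31, 0.22, 0.32 and 0.45 on the log2 scale in gilts 1 to 4, a mean of 0.32 ± 0.09 (SD, n = 4) towards Cy5. Only 1.39% of all rows had a mean dye value of at least this size, and the median absolute value over rows was 0.05. For GNAS it was 0.03, -0.23, 0.36 and 0.49, with a mean of 0.16 ± 0.33. The dye value had 1 sign in all gilts for FOLR1 and changed sign for GNAS. It cancels in the tissue values, since every tissue was labelled with each dye in each gilt, but not in a single array ratio.

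In the order among liver, skeletal muscle and uterine endothelium, which was not the criterion of the choice, FOLR1 differed and GNAS did not pass the test. The limma F test among liver, skeletal muscle and uterine endothelium gave FOLR1 an adjusted p of 8.6e-05 and GNAS an adjusted p of 0.21. Over all rows 40.4% passed this test. The F value of FOLR1 was reached by 6.01% of rows and that of GNAS by 60.8%. An exact permutation of the 3 tissue labels within gilts, with 1296 arrangements and a smallest possible p of 0.0046, gave 0.023 for FOLR1 and 0.11 for GNAS. These permutation p values were not adjusted over rows.

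FOLR1 was higher in liver than in skeletal muscle by 1.79, 2.41, 1.81 and 1.30 on the log2 scale in gilts 1 to 4. The mean difference was 1.83 ± 0.22 (SE; limma adjusted p = 7.8e-05), or 3.55-fold if the base is 2, and it had 1 sign in 4 of 4 gilts, as 54.3% of all rows did. Over all rows of the array 13.3% were called higher in liver in this comparison, and 2.79% had a difference of at least this size in either direction. The 3 arrays that held liver and muscle together gave 1.48, 2.63 and 1.75, above 0 with either dye.

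Between skeletal muscle and uterine endothelium the difference of FOLR1 was -2.13, -2.14, -1.37 and -1.27 in gilts 1 to 4. Its mean was -1.73 ± 0.22 (SE; limma adjusted p = 0.00023), a level 3.31-fold lower in muscle, again with 1 sign in 4 of 4 gilts (45.7% of all rows). Of all rows, 13.1% were called lower in muscle here, and 1.64% differed by at least as much. On the arrays that held this pair, uterine endothelium exceeded muscle by 2.43 and 1.69 where it was in Cy5 (gilts 1 and 3) and by 0.82 where it was in Cy3 (gilt 4). The smallest of the 3 was thus the array with the dyes the other way round, in the direction of the dye value given above.

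Liver and uterine endothelium were not separated for FOLR1. The difference was -0.34, 0.27, 0.45 and 0.03 in gilts 1 to 4, a mean of 0.10 ± 0.22 (SE; limma adjusted p = 0.79), and its 95% interval ran from -0.39 to 0.59. In this comparison 24.0% of all rows were called in either direction. Gilt 1 alone had the higher value in uterine endothelium, and the order of the other 3 gilts was liver, uterine endothelium, muscle, brain stem. A difference of up to 0.59 in favour of liver therefore lies within the interval.

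No pairwise difference of GNAS among the 3 tissues passed the test. Skeletal muscle minus uterine endothelium was 0.35, -0.88, -1.14 and -0.58 on the log2 scale in gilts 1 to 4, a mean of -0.56 ± 0.27 (SE; limma adjusted p = 0.15), with a 95% interval from -1.14 to 0.02; 26.4% of all rows were called in either direction. At least as large a difference in either direction was seen in 13.3% of all rows. Without gilt 1, the only one in which muscle was higher, the mean was -0.87 with a limma adjusted p of 0.048. Leaving out gilt 2, 3 or 4 instead gave -0.46, -0.37 and -0.56 (limma adjusted p = 0.30, 0.51 and 0.24). Liver minus uterine endothelium was 0.41, -0.62, -0.92 and -0.67, a mean of -0.45 ± 0.27 (SE; limma adjusted p = 0.26), with an interval from -1.03 to 0.13. The mean was -0.74 without gilt 1 and -0.29 without gilt 3. With all gilts, 17.4% of all rows differed by at least as much in either direction. In gilts 2, 3 and 4 uterine endothelium was the highest of all tissues for GNAS, and in gilt 1 it was the third. Liver minus skeletal muscle was 0.06, 0.26, 0.22 and -0.09, a mean of 0.11 ± 0.27 (SE; limma adjusted p = 0.82), with an interval from -0.47 to 0.69; here 26.1% of all rows were called. The gilts lay closest together in that last comparison, with an SD of 0.16 against 0.59 and 0.65 in the other 2.

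**Figure D3:**
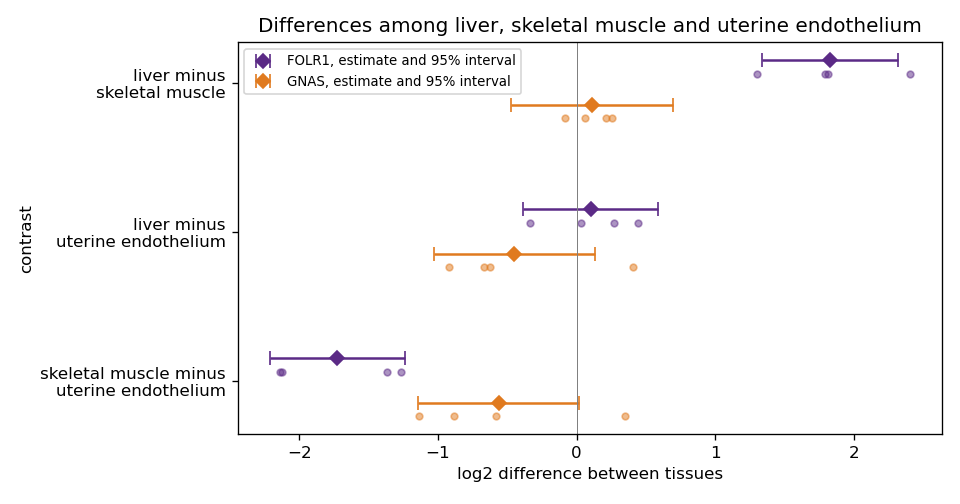
Log2 differences among liver, skeletal muscle and uterine endothelium for FOLR1 (purple) and GNAS (orange); diamonds with bars are limma estimates with 95% intervals and small points are the 4 gilts. The intervals of FOLR1 exclude 0 in both comparisons with skeletal muscle, and those of GNAS include 0 in all 3.

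The genes differed most from each other in liver minus skeletal muscle. Liver minus muscle was larger for FOLR1 than for GNAS by 1.73, 2.15, 1.60 and 1.39 on the log2 scale in gilts 1 to 4, a mean of 1.72 ± 0.32 (SD, n = 4; exact two-sided sign-flip p = 0.125). With 4 gilts this test cannot go below 0.125. Muscle minus uterine endothelium was more negative for FOLR1 by 1 sign in 4 of 4 gilts, with gene differences of -2.48, -1.26, -0.23 and -0.69 and a mean of -1.16 ± 0.97 (exact two-sided sign-flip p = 0.125). Without gilt 1 that mean was -0.73. For liver minus uterine endothelium the gene difference was -0.75, 0.89, 1.37 and 0.70, a mean of 0.55 ± 0.91 with 1 sign in 3 of 4 gilts (exact two-sided sign-flip p = 0.375); it was 0.99 without gilt 1 and 0.28 without gilt 3. In both of these last comparisons gilt 1 had the lowest value. As a description of values used to pick the genes, brain stem minus muscle was less negative for FOLR1 than for GNAS by 1.22 ± 0.41, with 1 sign in 4 of 4 gilts.

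The other rows with a low brain stem value had various orders of the remaining tissues. Brain stem was at least as far below the nearest tissue as in FOLR1 in 708 rows, the 2 genes included. Liver was highest and muscle nearest to brain stem in 60 of them (8.47%), as in the means of FOLR1. Uterine endothelium was highest and muscle nearest in 149 (21.0%), as in the means of GNAS and in FOLR1 of gilt 1. Since liver and uterine endothelium were not separated for FOLR1 (without gilt 3 the difference was -0.01), its place in the first of these orders is not settled. The most frequent order had uterine endothelium highest and liver nearest to brain stem, in 241 rows (34.0%). Of the 708 rows only 4 carried a symbol, so the genes behind most of these orders are not named here.

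The genes most like FOLR1 over the 16 tissue values were PSME1, a subunit of the proteasome activator PA28 (Pearson r = 0.93), NPG4, the antimicrobial peptide protegrin 4 (0.93), LAMP1, a membrane protein of lysosomes (0.92), QDPR, which recycles tetrahydrobiopterin (0.86), and TSPO, the translocator protein of mitochondria (0.84), out of 174 other genes. These 5 share the 2 low tissues, which a choice by r over the 16 values favours. QDPR, for example, had mean log2 values of 1.38 in liver, 0.26 in uterine endothelium, -0.85 in muscle and -0.79 in brain stem. The profile of NPG4 had the same form but a small size, between -0.19 and 0.12.

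For GNAS the genes most alike were PSME1 (r = 0.90), ITGB1, the beta 1 integrin subunit (0.86), RPN2, a subunit of the oligosaccharyltransferase complex (0.86), SPRP (0.85) and LAMP1 (0.80). ITGB1 had mean log2 values of 0.04 in liver, 0.27 in muscle, 0.27 in uterine endothelium and -0.58 in brain stem. Brain stem was its single low tissue, which a choice by r over the 16 values with GNAS favours. PSME1 and LAMP1 were on both lists. FOLR1 and GNAS correlated with r = 0.79 over the 16 values, which made GNAS the 8th gene for FOLR1 and FOLR1 the 6th for GNAS. Over the 12 values left without brain stem the r between them was 0.34. Over those 12 values the 5 genes most like FOLR1 kept r of 0.83 to 0.91 with it, and those most like GNAS had r of 0.11 to 0.73. The values share 4 gilts and 16 arrays, and each gilt's values sum to 0, so these coefficients are descriptions. Over all rows, 194 correlated with FOLR1 and 376 with GNAS at r above 0.9.

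**Figure D4:**
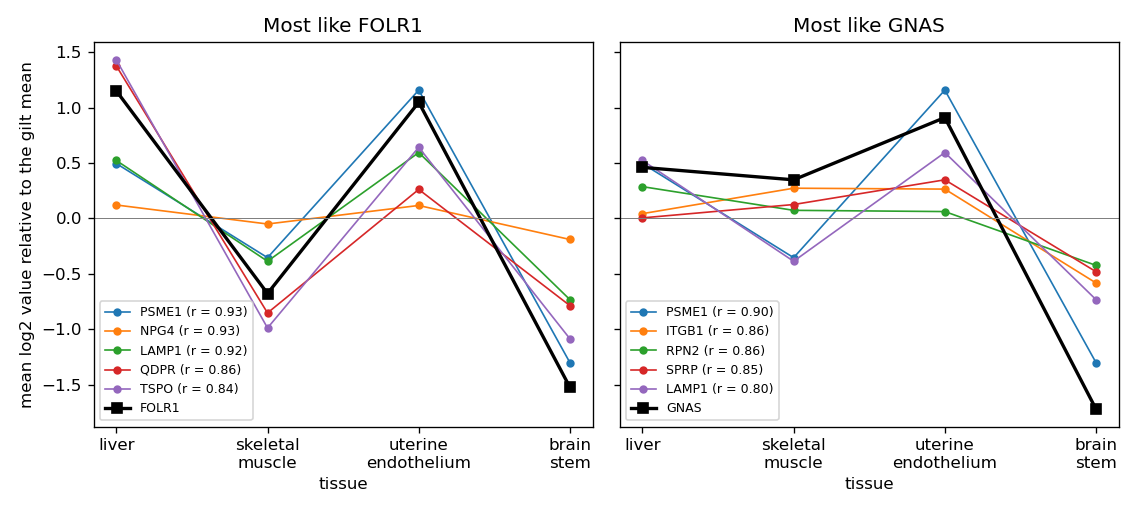
Mean log2 values over 4 gilts of the 5 genes most like FOLR1 (left) and most like GNAS (right), with the gene itself in black and Pearson r over 16 values in the key. The genes on the left fall in both skeletal muscle and brain stem, and on the right PSME1 and LAMP1 are also low in muscle while ITGB1, RPN2 and SPRP are low in brain stem only.

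Of the genes that act with the 2 members, few were named on this array. The list of 30 other folate and one-carbon genes, among them the paralog FOLR2 and the carriers SLC19A1 and SLC46A1, had 0 named rows, so FOLR1 could not be set beside its pathway. The list of 82 other genes of stimulatory G protein and cyclic AMP signalling had 9 genes with rows. Of these, 8 passed the limma F test among the 4 tissues, beside 61.2% of all rows; the count was 5 without gilt 2 and 5 without gilt 3. Their median range between the highest and lowest tissue was 0.40 on the log2 scale, beside 0.37 over all rows.

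The ligands of receptors that use this G protein went different ways. LHB, the beta subunit of luteinizing hormone, was the one gene besides ASIP with its lowest value in brain stem, as in GNAS, at -0.41 ± 0.12 (SD, n = 4) on the log2 scale beside 0.25 ± 0.14 in liver (limma F test adjusted p = 0.00088). POMC, the precursor of melanocortins and corticotropin, was highest there, at 0.36 ± 0.10 beside -0.23 ± 0.08 in liver (adjusted p = 0.00048). ADCYAP1, the neuropeptide PACAP, was highest in muscle, at 0.60 ± 0.30, and lowest in uterine endothelium, at -0.38 ± 0.07 (adjusted p = 0.00078). All 4 probes of ASIP, the agouti signalling protein that blocks MC1R, had their lowest value in brain stem, between -0.34 and -0.12. In the probes at -0.12 and -0.14, uterine endothelium stood at -0.09 and was not separated from brain stem (limma adjusted p = 0.70 and 0.56). Their calls in the F test were lost without gilt 2 or gilt 3, and that of the probe at -0.19 was lost without gilt 3.

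Among the receptors, MC1R, the melanocortin 1 receptor, was highest in muscle at 0.44 ± 0.21 and lowest in liver at -0.34 ± 0.23 (limma F test adjusted p = 0.0045). HTR4, a serotonin receptor, stood at 0.24 ± 0.19 in brain stem and -0.16 ± 0.02 in muscle (adjusted p = 0.021), a call lost without gilt 2 or gilt 4. FSHR, the receptor of follicle-stimulating hormone, was highest in liver at 0.22 ± 0.04 (adjusted p = 0.012), and AVPR2, the vasopressin V2 receptor, in muscle at 0.14 ± 0.07 (adjusted p = 0.031). The call of FSHR was lost without gilt 3, and that of AVPR2 without any 1 of the gilts. CALCRL, the calcitonin receptor-like receptor, did not pass (adjusted p = 0.58), with means between -0.03 and 0.03.

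**Figure D5:**
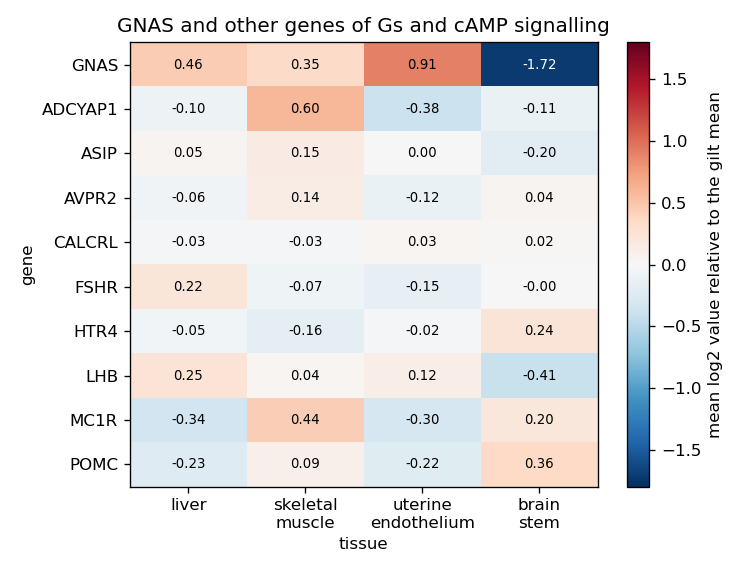
Mean log2 values over 4 gilts of GNAS and 9 other genes of stimulatory G protein and cyclic AMP signalling (rows) in 4 tissues (columns), relative to the gilt mean, with red above and blue below 0; ASIP is the mean of 4 probes. GNAS was selected on its low brain stem value; of the others LHB (-0.41) is the lowest in brain stem and POMC (0.36) the highest.

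Rows next to the 2 genes in the table may lie near them on the array. The rows directly before and after FOLR1 had tissue means of at most 0.12 and 0.45 in absolute log2 value, and those before and after GNAS at most 0.22 and 0.21. In all 4 of these rows the highest tissue was brain stem, the tissue in which both genes were lowest. The share of all rows with brain stem highest is not given here, so this count has nothing to be set against. At a distance of 2, the row before FOLR1 (0.11) and those before and after GNAS (0.45 and 0.36) also had brain stem highest. The row at that distance after FOLR1 had liver highest (0.30) and muscle lowest (-0.43), with brain stem at 0.10.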

How the data were processed

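RNA of 4 tissues of 4 gilts was hybridised on 16 two-colour arrays. The authors deposited 1 log2 ratio per row and array (20736 rows, 0 missing values); base and sign are inferred, and how the arrays were scanned and normalised is not given in the sources used here. Per the labels' protocols, RNA was extracted with TRIzol, amplified by in vitro transcription and labelled with Cy3 or Cy5.

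Each loop was solved by least squares into 4 tissue values and a dye value per gilt. All rows were fitted with limma 3.58.1 (R 4.3.3), a fixed term for gilt, 9 degrees of freedom for error, two-sided tests and Benjamini-Hochberg adjustment over all rows at 0.05; the script was tested on simulated data. The labels tie each block to 1 animal; values relative to the gilt mean cannot show a shared deviation. Members, lists and tests were chosen with earlier results of these data known. Named genes were the 2 members, the 5 with the highest Pearson r with each, list members with a row, and some markers. The markers named were CRP, PROC, UOX, MBL2, CYP7A1, MYOD1, GLRB, OXTR, CYP8B1, MYH7 and GAD1. A gene with several probes counted as passing when most of its probes did.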

Additional observations from a re-analysis of the deposited data

Results flagged for a closer look

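Of 25 sets of 4 gilts examined (tissue values, tissue differences and dye values of both genes, and gene differences), 1 held an extreme gilt. FOLR1 in gilt 4 gave -3.15 on the log2 scale for brain stem minus liver, while gilts 1 to 3 ranged from -2.56 to -2.45. The distance of gilt 4 from its closest neighbour was 0.833 of the full spread of the 4. About 1 in 20 such sets would be picked out by chance.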

How the results depend on the processing

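The order of FOLR1 and GNAS rests on the sign of the ratio. With the sign turned, liver minus muscle of FOLR1 is -1.83 and muscle minus uterine endothelium 1.73; brain stem exceeds liver, muscle and uterine endothelium by 2.67, 0.85 and 2.57 for FOLR1 and by 2.18, 2.07 and 2.63 for GNAS; and FOLR1 minus GNAS is -1.72 for liver minus muscle, -0.55 for liver minus uterine endothelium and 1.16 for muscle minus uterine endothelium. Under 12 other settings (each gilt left out, no block, 16 array ratios with a dye term and no block or a random one, scaled arrays, median centring, centring on the most frequent value, robust moderation, no brain stem values), 71 of 72 pairwise tests and all 24 F tests kept their side of the threshold, as did both F tests by exact permutation, and no called difference changed sign. The 6 values from direct arrays alone, which have no test, moved by less than 1 SD between gilts. The exception was muscle minus uterine endothelium of GNAS, which passed without gilt 1; leaving out each gilt gave -0.87 to -0.37. With no gilt block the estimates cannot change, since the values of each gilt already sum to 0. The limma adjusted p for FOLR1 was then 3.8e-06 for liver minus muscle (1.83) and 1.2e-05 for muscle minus uterine endothelium. These are too low, because that fit counts degrees of freedom that the centred values do not hold. The setting is among the 12 and changed no call, but it is no check on the calls of FOLR1. Leaving out a gilt gave 1.64 to 2.00 and -1.88 to -1.59 for these differences, and 5 to 7 genes past the F test in the list of stimulatory G protein genes, where fewer animals were fitted. Rows called between liver and uterine endothelium numbered 4969, and 2785 without gilt 3; between muscle and uterine endothelium 5475, and 3436 or 3103 without gilt 2 or 3. The array ratios hold no intensities, so a filter on dim spots was not run.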
